A study of Mus musculus with 4 samples.

Results

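Lipid mediator receptors are G protein-coupled receptors through which dendritic cells, the cells that take up antigen and prime T cells, sense lysophosphatidic acid, sphingosine 1-phosphate, oxysterols and related lipids. The members described here are the 10 receptor genes Lpar1, Lpar5, Lpar6, S1pr1, S1pr2, S1pr4, Gpr183, Gpr132, Ptafr and P2ry10, found by symbol among the 17300 genes of the deposited table. They were chosen by name, but selected on a proposal made with the KO and WT log2 values of these same libraries in view, so their differences are given as a description, without a test.

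RNA of dendritic cells sorted from mouse spleen was sequenced in 2 KO and 2 WT libraries, and the series title names Siglec-E, an inhibitory receptor for sialic acid, in a transplant rejection setting. The labels give the genotype of the tested animals only as KO, with EKO in the titles, and that of the others as WT. They give no deleted gene, allele, strain, age, sex or treatment, and they do not say whether libraries of a group came from separate animals. The labels thus do not tell whether the spread between libraries is technical, and the p-values below measure that spread alone. The columns of the table all carry the word Allo, which the sources used here leave unexplained. The KO columns bear other numbers than the KO titles so they are named KO A and KO B below.

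As background, these receptors couple ligand gradients to cell position and activation. Sphingosine 1-phosphate is high in blood and lymph and low inside lymphoid tissue, and cells follow that gradient through S1pr1. Oxysterols made by stromal cells guide dendritic cells and B cells through Gpr183 to the bridging channels and follicle borders of the spleen. Lysophosphatidic acid acts through receptors of the Lpar family on adhesion, migration and cytokine output.

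Values are log2 units on the authors' variance-stabilized scale, whose lowest value, a count of 0, was 8.04 in every library. Low values are compressed on this scale, so scaled counts obtained by undoing the transform are given beside them. Siglece (ENSMUSG00000030474), the gene of Siglec-E, measured 8.92 (KO A) and 8.96 (KO B), against 10.38 (WT 1) and 10.14 (WT 2). Both KO libraries were thus far below both WT libraries, and limma's adjusted p was 0.0138. The libraries summed to between 30274060 and 30952251 scaled counts in KO and between 29002408 and 29377044 in WT. KO A stood apart in the Y-linked gene Ddx3y, with 64.5 scaled counts where KO B had 3979, WT 1 3102 and WT 2 3500. Eif2s3y and Kdm5d, also Y-linked, had 32.2 and 551 in KO A, against 1921 and 2089 in KO B. The KO libraries are therefore not repeats of the same RNA. The labels give no sex, so a member's difference is also given without KO A where its sign changes. Genes that define dendritic cells were present. Of the 10 pan dendritic cell markers 7 fell, among them Dpp4, the surface peptidase CD26, which measured 12.83 (KO A) and 12.81 (KO B), against 13.75 (WT 1) and 13.71 (WT 2). In bulk RNA of sorted cells, fewer cells of a type and less RNA per cell cannot be told apart.

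The promoters of the 4 members whose KO and WT libraries did not overlap are shown so that the windows can be set beside their values. Such groups were also found for 56.2% of all genes tested, and of the 4 members only Lpar1 was past limma's adjusted p threshold of 0.05. Each promoter is the stretch of 250 bases before the first RefSeq start of the gene, 5′ to 3′ on the gene's strand, from GRCm38.p6, an older build than the GRCm39 of the submitters' processing notes. Capitals mark matches to 3 motifs: the AP-1 motif TGANTCA, the CACCC box, and the PU.1 core GAGGAAG, each searched on both strands, with no overlap between matches here. The Lpar1 stretch lies at chr4:58553492-58553741 (minus strand), that of Lpar5 at chr6:125067670-125067919 (plus strand), that of S1pr4 at chr10:81500138-81500387 (minus strand) and that of P2ry10 at chrX:107088242-107088491 (plus strand).
Lpar1: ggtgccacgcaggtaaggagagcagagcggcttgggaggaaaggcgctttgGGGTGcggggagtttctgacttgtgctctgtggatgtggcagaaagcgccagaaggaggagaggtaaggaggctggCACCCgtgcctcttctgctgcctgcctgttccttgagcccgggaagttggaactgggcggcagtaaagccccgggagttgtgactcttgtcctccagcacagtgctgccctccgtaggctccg
Lpar5: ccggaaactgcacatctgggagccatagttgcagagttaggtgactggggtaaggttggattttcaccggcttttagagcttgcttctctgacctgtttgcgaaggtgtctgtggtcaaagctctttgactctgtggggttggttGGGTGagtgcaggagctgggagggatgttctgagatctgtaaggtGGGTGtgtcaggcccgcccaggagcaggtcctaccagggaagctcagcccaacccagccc
S1pr4: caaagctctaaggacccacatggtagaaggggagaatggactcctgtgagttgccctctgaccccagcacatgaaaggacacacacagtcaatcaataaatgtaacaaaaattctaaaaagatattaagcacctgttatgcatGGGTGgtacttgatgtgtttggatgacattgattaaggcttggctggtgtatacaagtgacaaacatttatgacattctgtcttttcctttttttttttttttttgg
P2ry10: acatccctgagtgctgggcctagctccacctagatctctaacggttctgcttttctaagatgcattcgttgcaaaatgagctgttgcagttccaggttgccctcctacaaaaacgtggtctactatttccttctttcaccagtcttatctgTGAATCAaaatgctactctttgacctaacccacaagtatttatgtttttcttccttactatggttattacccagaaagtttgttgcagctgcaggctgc

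Of the 10 members, 9 had an entry in the RefSeq promoter table, all but S1pr1. The CACCC box was found 3 times in the window of Ptafr, 2 times each in those of Lpar1 and Lpar5, 1 time each in those of Lpar6, S1pr2, S1pr4 and Gpr132, and 0 times in those of Gpr183 and P2ry10. Among 27025 promoters of the same length, 51.3% held it. The P2ry10 window held the AP-1 motif, which starts 99 bases before the gene's first start and which 6.85% of all promoters held. Only the first start of each gene was searched, while Lpar1 had 3 starts in that table and Lpar5 and P2ry10 had 2 each. The PU.1 core, found in 10.4% of all promoters, had 0 matches in the 9 windows. A match describes the letters of the window and not a bound site.

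Lpar1 was the member with the largest difference between the genotypes. The other members differed little on the variance-stabilized scale, which compresses low values. On it 9 of the 10 differed by less than 0.25 log2 units, as did 76.4% of the 11864 genes tested. In scaled counts KO stood at 1.48 times WT for S1pr1, 1.34 times for S1pr4 and 0.72 times for Lpar5. All 10 passed the filter on low values, which uses the mean over all libraries. Lpar1 did so through WT, with a mean of 9.67. Its KO mean of 8.73 was less than 1 log2 unit above the lowest value. The median difference of the members was -0.03, against -0.0017 over all genes tested. In limma with a threshold of 0.05 on the adjusted p, 1 member (Lpar1) was among the genes past the threshold, lower in KO, where the background was 6.93% of genes past it, 4.69% higher and 2.23% lower. Without KO A or without KO B, 0 members were among them, as 0 and 3 genes passed in all. Nothing is read from these counts, since the choice of members used the same contrast. Both KO libraries lay below both WT libraries for 2 members (Lpar1 and Lpar5; 28.2% of all genes tested) and above them for 2 (S1pr4 and P2ry10; 28.1%), while the other 6 overlapped. Groups that do not overlap were found for 56.2% of all genes tested.

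**Figure D1:**
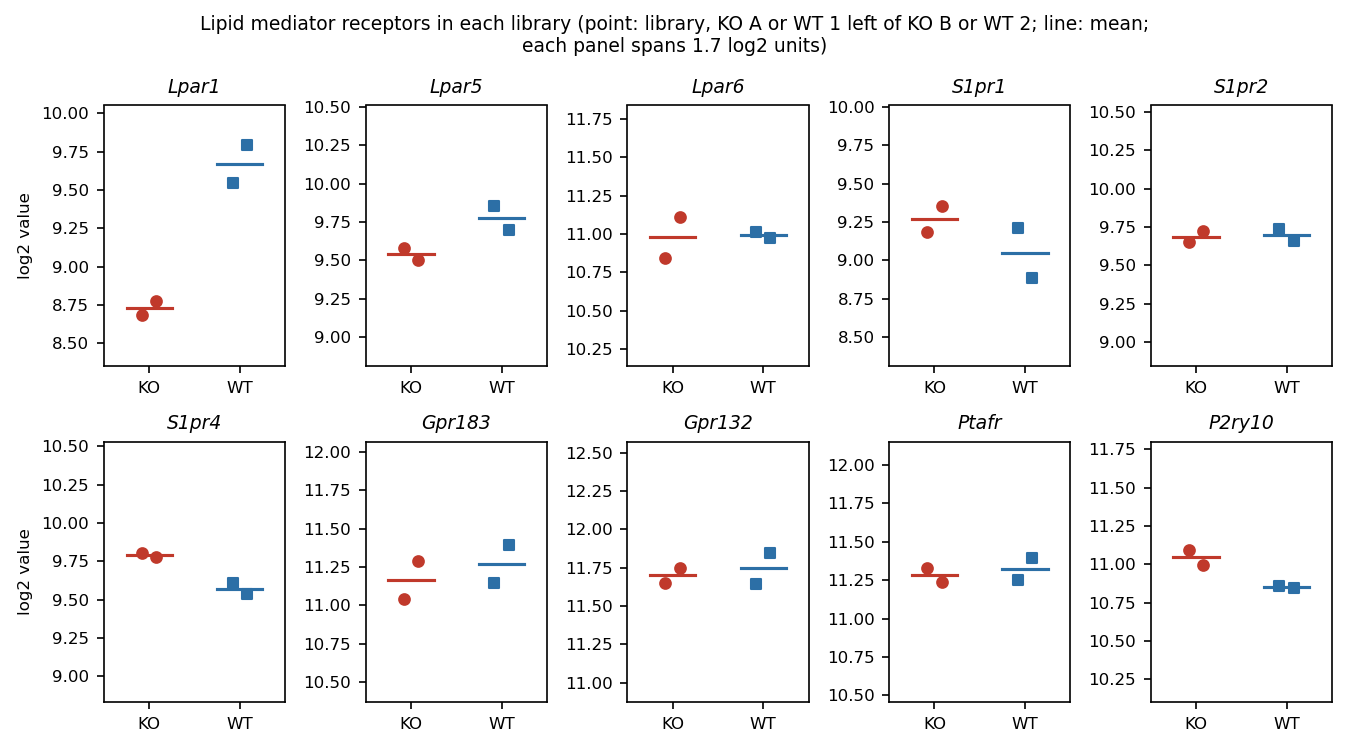
Log2 values of the 10 receptors in each library, with the KO libraries left and the WT libraries right in each panel, points for libraries and lines for means; each panel spans the same height in log2 units. In the Lpar1 panel the KO libraries sit at 8.69 and 8.78, below the WT libraries at 9.54 and 9.79.

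The lysophosphatidic acid receptors were not alike in size of difference: Lpar1 came first of all 10 members, while Lpar5 was at -0.24 and Lpar6 at -0.02. Lpar1 (ENSMUSG00000038668), which couples to several G protein classes, measured 8.69 (KO A) and 8.78 (KO B), against 9.54 (WT 1) and 9.79 (WT 2). Its scaled counts were 54.5 (KO A) and 70.5 (KO B), against 314 (WT 1) and 440 (WT 2). Every KO library was thus far below every WT library, and the WT libraries also differed from each other. KO averaged 8.73 ± 0.062 and WT 9.67 ± 0.18 (SD, n = 2 per genotype). The difference was -0.94 (SE 0.108), or 6.03-fold fewer scaled counts in KO. It was -0.89 without KO A and -0.98 without KO B, and between -1.06 and -0.81 with either WT library left out. Of all genes tested, 98.8% had a smaller absolute difference.

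Lpar1 overlaps an unnamed gene model on its own strand, Gm12577, whose reads the authors' counting could have divided with it. Gm12577 had 40.3 (KO A) and 33.1 (KO B) scaled counts, against 86.8 (WT 1) and 103 (WT 2), so it was lower in both KO libraries too. It lay under the filter and was not tested.

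Lpar5 (ENSMUSG00000067714), a receptor also known to restrain antigen receptor signalling in lymphocytes, measured 9.58 (KO A) and 9.50 (KO B), against 9.85 (WT 1) and 9.70 (WT 2). Both KO libraries were lower, though KO A and WT 2 lay close together. The difference was -0.24 (SE 0.0965), with 313 mean scaled counts in KO and 432 in WT. Lpar6 (ENSMUSG00000033446), a receptor of the P2Y type, measured 10.85 (KO A) and 11.11 (KO B), against 11.02 (WT 1) and 10.98 (WT 2). Its KO libraries lay on either side of both WT libraries, with a difference of -0.02 (SE 0.110). It turned to 0.11 without KO A and to 0.0017 without WT 1.

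Lpar6 lies within Rb1 on the opposite strand, as Gpr183 does within Ubac2. The library kit keeps strand, per the labels' protocols, but the setting of the authors' counting is not given in the sources used here, so reads of these overlapping pairs may not be fully separate. Rb1 measured 11.61 (KO A) and 12.33 (KO B), against 12.03 (WT 1) and 11.86 (WT 2), and had a difference of 0.02 (adjusted p = 0.965). Like Lpar6, it was lowest in KO A and highest in KO B.

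The 3 sphingosine 1-phosphate receptors among the members showed differences of at most 0.22, and S1pr5, which is no member, is given with the wider pathway. S1pr1 (ENSMUSG00000045092), the egress receptor of lymphocytes, measured 9.19 (KO A) and 9.35 (KO B), against 9.21 (WT 1) and 8.89 (WT 2). WT 1 lay between the KO libraries, and WT 2 alone was low, with 94.1 scaled counts where the other libraries had 176 to 234. The difference of 0.22 (SE 0.127) became 0.06 without WT 2 and 0.38 without WT 1.

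S1pr2 (ENSMUSG00000043895), which couples to the G12 and G13 proteins and holds B cells in germinal centres, measured 9.65 (KO A) and 9.72 (KO B), against 9.73 (WT 1) and 9.66 (WT 2). The genotypes overlapped, with 383 mean scaled counts in KO and 387 in WT. The difference of -0.0082 (SE 0.0892) turned to 0.03 without KO A and likewise without WT 1. S1pr4 (ENSMUSG00000044199), a receptor found mostly on blood cells, measured 9.80 (KO A) and 9.78 (KO B), against 9.61 (WT 1) and 9.54 (WT 2). Both KO libraries were above both WT libraries, by 0.22 on average (SE 0.0867), or 1.34-fold in scaled counts.

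Among the receptors for other lipids, P2ry10 (ENSMUSG00000050921), a lysophosphatidylserine receptor, lay above WT in both KO libraries, at 11.09 (KO A) and 11.00 (KO B), against 10.86 (WT 1) and 10.85 (WT 2). The difference was 0.19 (SE 0.0859), or 1.19-fold in scaled counts. P2ry10 is X-linked, and KO A, which was low in Y-linked RNA, was its highest library. Without KO A the difference was 0.14. Gpr183 (ENSMUSG00000051212), the oxysterol receptor that places dendritic cells in the spleen, measured 11.04 (KO A) and 11.29 (KO B), against 11.15 (WT 1) and 11.39 (WT 2). Its genotypes overlapped, and the difference of -0.10 (SE 0.126) turned to 0.02 without KO A and likewise without WT 2. Ubac2, which overlaps it, measured 11.03 (KO A) and 11.15 (KO B), against 11.39 (WT 1) and 11.38 (WT 2), a difference of -0.30 (adjusted p = 0.0931).

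Gpr132 (ENSMUSG00000021298), which responds to oxidized fatty acids and lysophosphatidylcholine, measured 11.65 (KO A) and 11.75 (KO B), against 11.64 (WT 1) and 11.85 (WT 2). Ptafr (ENSMUSG00000056529), the receptor of platelet-activating factor, measured 11.33 (KO A) and 11.24 (KO B), against 11.25 (WT 1) and 11.40 (WT 2). In both genes the KO libraries lay within or beside the WT range. Their differences were -0.05 (SE 0.101) for Gpr132 and -0.04 (SE 0.0928) for Ptafr, and both changed sign on leaving out a single library (WT 2 or KO A for Gpr132, WT 2 or KO B for Ptafr).

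**Figure D2:**
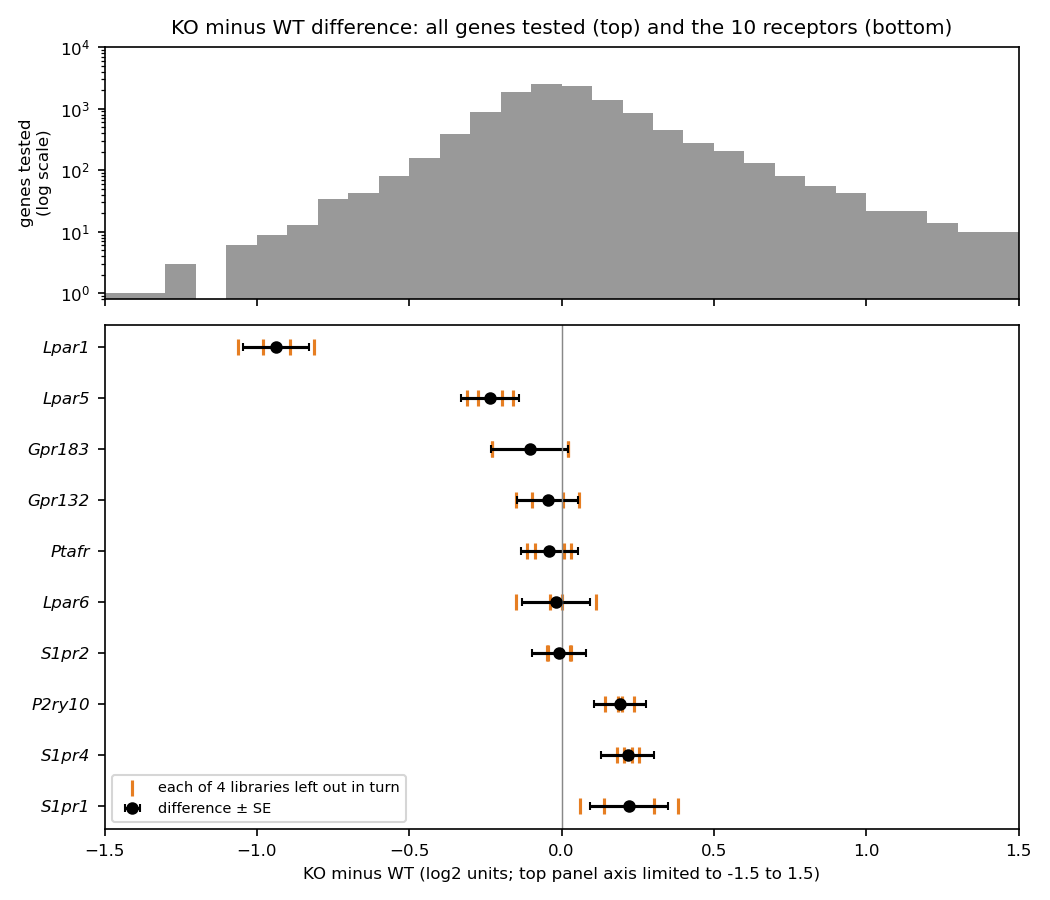
KO minus WT differences in log2 units: the upper panel counts all genes tested per 0.1-unit bin (log axis), and the lower panel gives each receptor with its SE and, as ticks, its difference with each of the 4 libraries left out in turn. Lpar1 at -0.94 stands away from the other 9, which lie between -0.24 and 0.22.

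Levels between genes were compared as scaled counts per kilobase of exon, with lengths of all annotated exons of a gene joined. In these terms Gpr132 was the most abundant member in both genotypes, with 1040 per kilobase in KO and 1082 in WT. Gpr183 followed with 627 in KO and 686 in WT, then Ptafr with 549 and P2ry10 with 544 in KO, and 569 and 457 in WT. In KO the library ranges of Gpr183 and Ptafr overlapped, as did those of Ptafr and P2ry10, so their order there lies within the spread. Lpar6 had 284 in KO and 288 in WT, and Lpar5 207 in KO and 285 in WT. The ranges of these 2 genes overlapped in WT and not in KO.

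The least abundant members were S1pr4 (183 per kilobase in KO, 137 in WT), S1pr1 (67.3 in KO, 45.4 in WT), S1pr2 (48.1 in KO, 48.6 in WT) and Lpar1 (14.6 in KO, 87.9 in WT). Lpar1 was thus the lowest member in KO, where it stood below S1pr2 in both libraries. In WT it stood above S1pr2 and S1pr1, whose WT ranges overlapped. Its place above S1pr2 rests on the exon lengths used (4.289 kilobases for Lpar1, 7.971 for S1pr2). Before division WT averaged 377 scaled counts for Lpar1 and 387 for S1pr2.

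**Figure D3:**
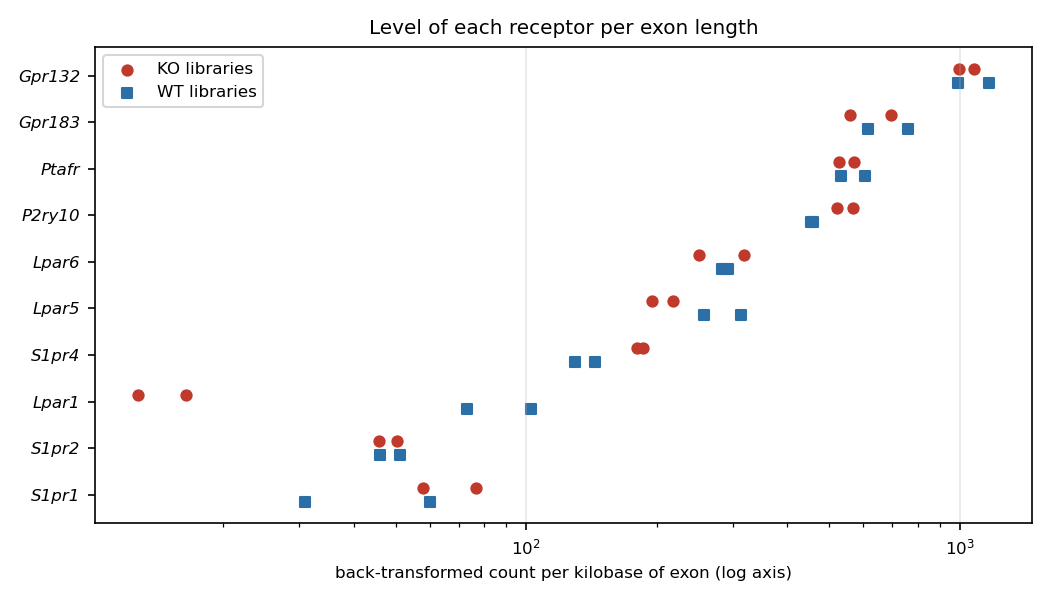
Scaled counts per kilobase of exon (log axis) for the 10 receptors, ordered by their WT mean, with 2 KO and 2 WT libraries as points. Lpar1 has 14.6 per kilobase on average in KO and 87.9 in WT, while Gpr132 has 1040 in KO and 1082 in WT.

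The 3 genes whose pattern over the 4 libraries was most like that of Lpar1, by root mean square distance of centred log2 values among 11195 named genes, were Il6st (distance 0.0750 log2 units), the signalling subunit of interleukin 6 family receptors, Plxnc1 (0.0790), a semaphorin receptor, and Lrrc18 (0.0819). For S1pr1, the member with the most positive difference, they were Gbe1 (0.0149), the glycogen branching enzyme, Depdc1a (0.0233) and Add3 (0.0275), an adducin of the membrane skeleton. With 4 libraries such likeness is a description only.

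The wider pathway was followed through 74 genes in 6 lists, of which 71 were in the table and 56 passed the filter. Of these 56, 7 rose, 4 fell and 45 did not pass, so 19.6% passed where the background was 6.93%. These lists were chosen with earlier results of these libraries known, so the share is a description. Their median difference was 0.04, against -0.0017 for all genes tested. Without KO A or without KO B, 0 of the 56 passed (18 and 21 had an unadjusted p under 0.05 in limma). With a lone KO library only the WT pair gives the spread, and calls were lost over all genes. This loss does not tell which genes rest on both KO libraries. The Hcar2 difference, for one, was 1.24 without KO A and 1.18 without KO B, while that of Arhgef12 was 1.18 and 0.58.

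**Figure D4:**
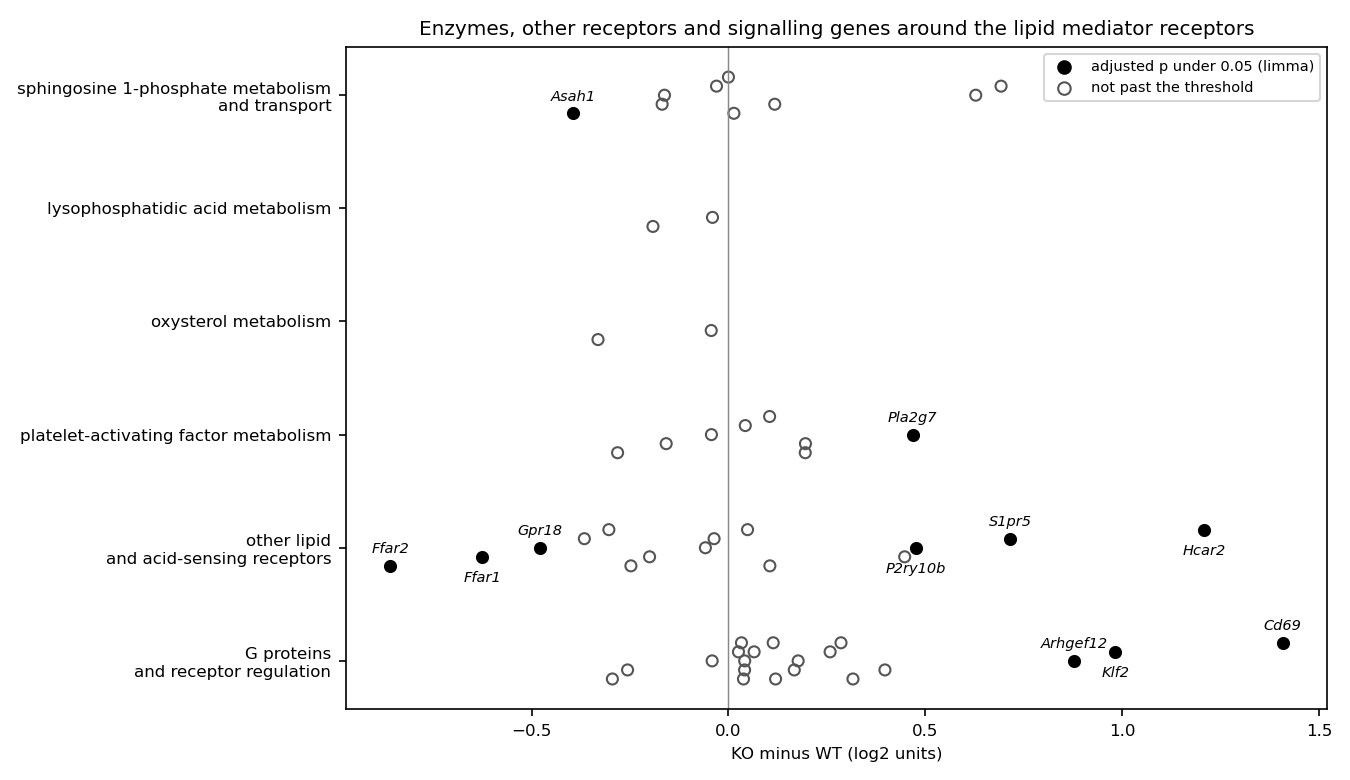
KO minus WT differences in log2 units for the 56 tested genes of the 6 lists, 1 row per list, with filled points for genes past the threshold. Filled points are most frequent among the other lipid and acid-sensing receptors, where 6 of 15 passed.

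Other lipid and acid-sensing receptors moved both ways. Of 22 listed, 21 were in the table and 15 were tested, of which 3 rose, 3 fell and 9 did not pass. Hcar2, the receptor of niacin and beta-hydroxybutyrate, had 569 (KO A) and 607 (KO B) scaled counts, against 64.8 (WT 1) and 97.3 (WT 2). It rose by 1.21 (SE 0.0939, adjusted p = 0.0138), and its scaled counts were 7.26-fold higher in KO. The WT mean of Hcar2, 8.82, was less than 1 log2 unit above the lowest value, so Hcar2 passed the filter through KO. Its ratio thus rests on low WT counts. S1pr5, the egress receptor of NK cells, had 1979 (KO A) and 1740 (KO B) scaled counts, against 1085 (WT 1) and 838 (WT 2), and rose by 0.72 (SE 0.117, adjusted p = 0.0259). P2ry10b, the neighbour and close relative of P2ry10 on the X chromosome, had 409 and 419 in KO, against 239 and 172 in WT, and rose by 0.48 (SE 0.0985, adjusted p = 0.0422). This call also ended without WT 2 (adjusted p = 0.129), with quantile normalization (adjusted p = 0.0555) and on the scale of log2 of the scaled count plus 1 (adjusted p = 0.0526). Reads of P2ry10 and P2ry10b may be divided between them in the authors' counting.

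Ffar2, a receptor of short-chain fatty acids such as acetate, was at 10.55 in both KO libraries, against 11.56 in WT 1 and 11.25 in WT 2. It fell by 0.86 (SE 0.119, adjusted p = 0.0199). Ffar1, a receptor of longer fatty acids, had 225 and 290 scaled counts in KO, against 608 and 571 in WT, and fell by 0.62 (SE 0.0967, adjusted p = 0.0241). Gpr18, a receptor gene that also lies within Ubac2 and was named after its values were seen, fell by 0.48 (adjusted p = 0.0319). The call of Gpr18 ended without any 1 of the 4 libraries (adjusted p between 0.0540 and 0.106). Without KO A these differences were 1.24 for Hcar2, 0.64 for S1pr5, -0.86 for Ffar2 and -0.54 for Ffar1, with adjusted p-values between 0.0545 and 0.101. The remaining Lpar and S1pr genes were Lpar2, at 9.39 and 9.36 in KO and 9.37 and 9.45 in WT (adjusted p = 0.839), and Lpar3, Lpar4 and S1pr3, which lay under the filter. S1pr3 had 37.5 and 50.1 scaled counts in KO, against 27.9 and 36.8 in WT.

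Of 12 genes for sphingosine 1-phosphate metabolism and transport 9 were tested, of which 0 rose, 1 fell and 8 did not pass. Asah1, the acid ceramidase that frees sphingosine, had 4493 (KO A) and 4577 (KO B) scaled counts, against 5953 (WT 1) and 6283 (WT 2), and fell by 0.39 (SE 0.0784, adjusted p = 0.0389). Sphk1, a kinase that makes the ligand, had 259 and 309 in KO, against 45.4 and 139 in WT, with a difference of 0.63 (SE 0.147, adjusted p = 0.0554). Sgpl1, the lyase that destroys it, had 3819 and 3780 in KO, against 4404 and 4260 in WT (difference -0.17, adjusted p = 0.240). The call of Asah1 ended on leaving out any of the 4 libraries (adjusted p between 0.0818 and 0.132).

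Genes for platelet-activating factor were all tested: 1 of 8 rose, 0 fell and 7 did not pass. Pla2g7, the secreted enzyme that breaks this lipid down, had 4775 (KO A) and 5319 (KO B) scaled counts, against 3398 (WT 1) and 3618 (WT 2), and rose by 0.47 (SE 0.0884, adjusted p = 0.0352). Its call also ended without WT 1 (adjusted p = 0.0951) and with quantile normalization (adjusted p = 0.0603). Lpcat2, which makes the lipid, had 1566 and 1801 in KO, against 1449 and 1371 in WT (difference 0.20, adjusted p = 0.260). In limma, 0 of the 2 tested genes of lysophosphatidic acid metabolism passed (0 at an unadjusted p under 0.05), and 0 of the 2 of oxysterol metabolism (1 at an unadjusted p under 0.05). Enpp2, the gene of the autotaxin enzyme that makes lysophosphatidic acid outside cells, was near the lowest value, with 27.4 and 32.7 scaled counts in KO and 45.3 and 14.9 in WT. Cyp7b1, an oxysterol-forming enzyme, had 60.4 and 52.1 in KO and 46.8 and 106 in WT. Ch25h is not analysed here.

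Of 20 genes for G proteins and receptor regulation 3 rose, 0 fell and 17 did not pass. Cd69, whose protein binds S1pr1 and removes it from the cell surface, had 1929 (KO A) and 1391 (KO B) scaled counts, against 255 (WT 1) and 502 (WT 2), and rose by 1.41 (SE 0.191, adjusted p = 0.0199). Klf2, which drives S1pr1 in T cells, had 5470 and 5834 in KO, against 2317 and 2950 in WT, and rose by 0.98 (SE 0.114, adjusted p = 0.0147). In the same libraries S1pr1 had 176 and 234 in KO, against 183 and 94.1 in WT, and its genotypes overlapped. Arhgef12, an exchange factor through which G12 and G13 proteins act, had 1203 and 2067 in KO, against 663 and 673 in WT, and rose by 0.88 (SE 0.188, adjusted p = 0.0463). The KO libraries differed in it: the difference was 1.18 without KO A and 0.58 without KO B, and its call ended with quantile normalization (adjusted p = 0.0629). Gnai2 and Gna13, the G protein subunits most used by these receptors in leukocytes, did not pass (differences of 0.11 and 0.29, adjusted p = 0.456 and 0.254).

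Markers of several cell types moved in the same libraries. Among the 10 pan dendritic cell markers, 0 rose and 3 (Bcl11a, Cd74 and Ccr7) did not pass beside the 7 that fell. The summed scaled counts of the 10 were 317702 to 341633 in KO and 449244 to 457049 in WT. Most of this sum came from Cd74, which did not pass (193842 and 179481 in KO, 233470 and 237744 in WT). Conventional DC1 markers fell in 3 of 8 genes (86516 to 98301 in KO, 117075 to 144668 in WT) and conventional DC2 markers in 2 of 6 tested (18871 to 19692 in KO, 20287 to 24194 in WT). In plasmacytoid markers 0 of 7 passed in limma, and 0 had an unadjusted p under 0.05 (16820 to 32569 in KO, 17134 to 21886 in WT), with KO A the highest library.

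NK cell markers rose in 6 of 7 genes and summed to 13404 to 16375 in KO and 7218 to 7566 in WT, beside S1pr5, the egress receptor of these cells. T cell markers rose in 3 of 4 tested (7887 to 8064 in KO, 4802 to 5185 in WT) and B cell markers in 1 of 8 (20397 to 22985 in KO, 16317 to 18159 in WT). Macrophage markers rose in 5 of 8 (21801 to 27603 in KO, 11912 to 12855 in WT), monocyte markers in 3 of 7 (62718 to 63382 in KO, 40273 to 41610 in WT), neutrophil markers in 2 of 8 (229153 to 246150 in KO, 80581 to 212416 in WT) and basophil and mast cell markers in 3 of 4 tested (1879 to 2787 in KO, 649 to 940 in WT). Ptafr, a receptor also carried by neutrophils and macrophages, overlapped between the genotypes. Erythroid markers rose in 3 of 8 and summed to 37337 to 55553 in KO and 2656 to 15599 in WT. Beside them Mfsd2b, the sphingosine 1-phosphate exporter of red cells, had 423 and 571 scaled counts in KO, against 102 and 279 in WT (difference 0.69, adjusted p = 0.0784). In the platelet list and in the endothelial and stromal list 0 of 3 tested genes passed in limma, with 1 in each at an unadjusted p under 0.05. The platelet list summed to 2264 to 2469 in KO and 1963 to 2020 in WT, and the endothelial and stromal list to 4949 to 6364 in KO and 4144 to 5052 in WT. No listed marker in the table was at 0 in all libraries. The part of these cell types in the receptor values was not tested. This holds for Lpar1, whose difference is given as a description. It also holds for the listed receptors lower past the threshold (Ffar1, Ffar2 and Gpr18) or higher past it (Hcar2, S1pr5 and P2ry10b).

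**Figure D5:**
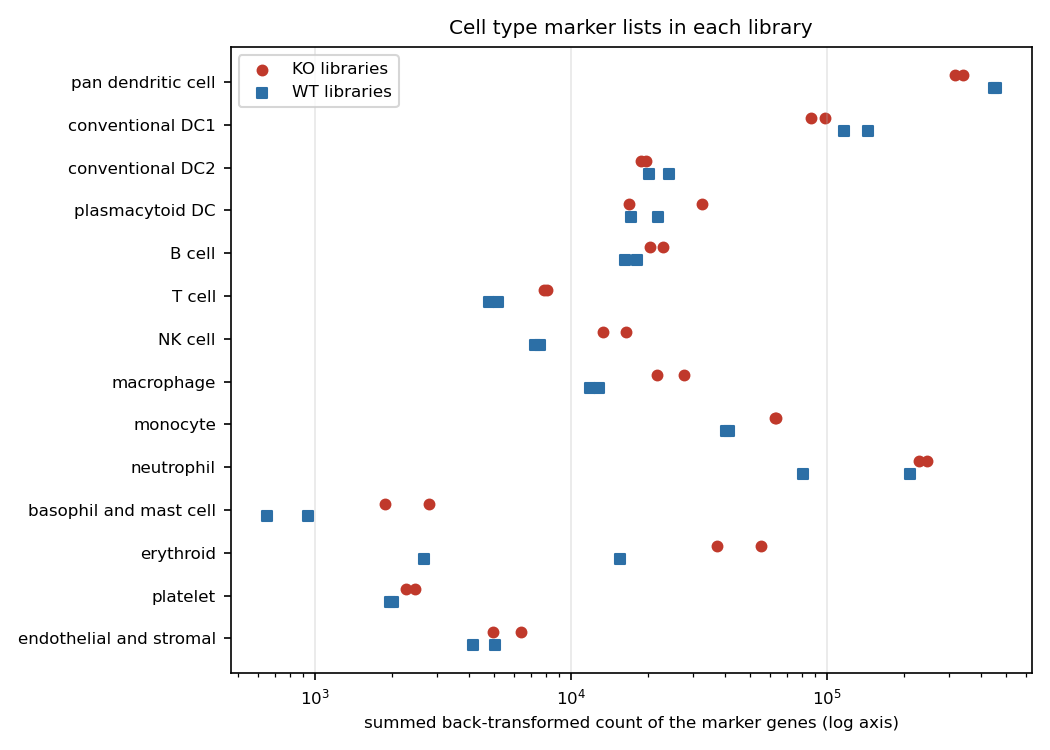
Summed scaled counts of each cell type marker list in every library (log axis), KO libraries above WT libraries in each row. Pan dendritic cell markers sum to 317702 to 341633 in KO and 449244 to 457049 in WT, and NK cell markers to 13404 to 16375 in KO and 7218 to 7566 in WT. Abundant genes such as Cd74 and Ighm weigh most in the sums of their lists.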

How the data were processed

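RNA of sorted splenic dendritic cells was read in 2 KO and 2 WT libraries prepared with a kit that reads total RNA and keeps strand, per the labels' protocols. The deposited table holds log2 values of 17300 genes, variance-stabilized and scaled between libraries by the authors. The submitters' processing notes list Salmon 1.10.1, DESeq2 and GRCm39, with no role or order. The authors' annotation is not given in the sources used here, nor is any gene filter.

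Scaled counts were obtained by inverting the closed form of the transform from its lowest value (8.04). They are not reads, so library depth is unknown and no counting intervals are given. Symbols came from GENCODE M21 (17289 identifiers matched, 11 did not), an annotation of an older build used for names, exon lengths and overlaps.

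Genes with a mean of 1 log2 unit or more over the lowest value were tested in limma 3.58.1 (R 4.3.3) with empirical Bayes moderation and an intensity trend, two-sided, with Benjamini-Hochberg adjustment over 11864 genes and a threshold of 0.05. A gene could pass this filter through a single genotype, as Lpar1 and Siglece did through WT and Hcar2 and Sphk1 through KO. The script was tested on simulated data. The members and lists were chosen with earlier results of these data known, and 1 listed gene is not reported here and not counted. Named were all members, Siglece and overlapping genes. Per list, up to 4 genes past the threshold by smallest p and up to 2 with a defining role were named. So were the 3 genes most like each of the members with the most negative and most positive difference. Beyond this rule, Gpr18, Mfsd2b, Lpar3, Lpar4, Y-linked genes and single cell type markers were also named. Alternatives were 2 other filters, quantile normalization, log2 of the scaled count plus 1, no trend, and leaving out each library.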

Additional observations from a re-analysis of the deposited data

How the results depend on the processing

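Across the 5 settings that kept all libraries, between 648 and 858 genes and between 8 and 12 pathway genes passed, against 822 and 11 as reported. Quantile normalization gave 366 higher and 282 lower (56.5% higher, against 67.8%), and 4 higher and 5 lower among pathway genes, against 7 and 4. Leaving out 1 library gave 0 to 820 genes and 0 to 11 pathway genes: limma called 0 without KO A (2508 at an unadjusted p under 0.05) and 3 without KO B (2448). A lone library of a genotype is then assumed to vary like the other group. The median of the members stayed between -0.07 and 0.03. The scale of log2 of the scaled count plus 1 does not compress low values. On it the differences of 5 members were larger by more than their spread between libraries on the variance-stabilized scale. They were -2.56 for Lpar1, -0.46 for Lpar5, 0.63 for S1pr1, 0.42 for S1pr4 and 0.25 for P2ry10, none of them with another sign. The spread between libraries on the new scale was not set against them. With the filter of 2 log2 units only 5 members remained, and Lpar1 was not among them. No paired analysis was possible because the KO columns carry numbers that match no KO title, so no KO library can be tied to a WT library. With 2 libraries per genotype, spread is poorly known, and low genes such as Lpar1 in KO rest on few counts.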
